A study of Gallus gallus with 10 samples.

Results

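The abundant mitochondrially encoded transcripts described here are 9 features of the deposited table, ENSGALG00000018373, ENSGALG00000018367, ENSGALG00000018370, ENSGALG00000018368, ENSGALG00000018360, ENSGALG00000018366, ENSGALG00000018382, ENSGALG00000018386 and ENSGALG00000018364. They are 9 of 19561 features, chosen as the most abundant rows in the run of Ensembl chicken identifiers from ENSGALG00000018360 to ENSGALG00000018386. That run of identifiers is attributed to the mitochondrial genome, and single gene names are not assigned here. All 9 lay within the 12 highest features by mean FPKM over the libraries (fragments scaled to feature length and to a library total). Their high level was therefore part of how they were chosen and is given as a description.

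RNA was sequenced from duodenal crypts, the epithelial pits that hold stem cells and secretory cells, of hens of the brown Hy-Line variety in their period of peak laying. Hens received a pair of lactobacilli at 10e8 CFUs per hen and day with the base diet, labelled L. sa. + L. ag., L. sa. + L. av. or L. ag. + L. av., or the base diet alone (control), for 30 days. There were 2 libraries for each of the 3 pairs, 1 pair-fed library whose title and description name different pairs, and 3 control libraries. The last pair-fed library, called the library of unclear pair, counted as pair-fed only. Whether libraries came from different hens is not in the labels, so the p-values reflect only library-to-library spread, and some of it may be technical. Whole reads recovered from the FPKM steps ranged from 15.3 M to 17.6 M in pair-fed libraries and from 21.7 M to 23.7 M in control libraries, so depth and diet differed together. Markers of crypt cell types were not tested, because the identifiers could not be paired with symbols.

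The mitochondrial genome of birds, like that of other vertebrates, is a small circle that encodes subunits of the respiratory chain and of ATP synthase together with the ribosomal and transfer RNAs of the organelle. It is read as long transcripts that are cut into single RNAs, many of which receive a short poly(A) tail and so enter libraries made from polyadenylated RNA. Mitochondrial transcripts are often a large part of the RNA of epithelial cells, which use much ATP for transport and renewal.

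The label was checked against feature length. Lengths recovered from the FPKM steps were 1548, 784, 684, 684, 1143, 351, 975, 976 and 1378 bp, in the order in which the 9 are listed above. RefSeq's mitochondrial chromosome in the reference gene table (assembly bGalGal1.mat.broiler.GRCg7b) holds 13 protein-coding, 2 rRNA and 22 tRNA genes. For 7 of the 9 the length equalled that of a mitochondrial protein-coding or rRNA gene exactly, and the other 2 lay within 3 bases of one. Of all 17375 features with a recovered length, 0.460% had a length equal to one of these genes. The share of features within 3 bases was not counted. Equal length is a description of the set and names no single gene, and the table's identifiers had 0 matches in the reference.

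The rows of the same number range that were not chosen were mostly short. There were 18 of them, and 14 were 37 to 73 bp long, against 65 to 76 bp for the reference's mitochondrial tRNA genes. Mean FPKM of these 14 lay between 0.45 and 175, with a median of 15.3. The 4 longer rows were also set against the mitochondrial protein-coding and rRNA gene lengths. Those of 1818, 1621 and 1041 bp lay 0, 1 and 2 bases from the nearest, and that of 135 bp lay 30 bases off. Such a length was thus not particular to the 9. The 9 members held between 90.4% and 94.5% of the FPKM of the whole number range in each library.

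The 9 together took a large and very variable part of each library. They made up 42.3% and 14.3% of the summed FPKM in the L. sa. + L. ag. libraries, 20.2% and 26.0% in the L. sa. + L. av. libraries, 34.1% and 23.4% in the L. ag. + L. av. libraries, 20.01% in the library of unclear pair, and 15.7%, 38.0% and 61.4% in the control libraries. The lowest pair-fed library lay under the lowest control, the highest control lay above every pair-fed library, and the 2 diets overlapped. The mean was 25.8% ± 9.52 in pair-fed libraries (SD, n = 7) and 38.4% ± 22.8 in control libraries (SD, n = 3). The difference of -12.6 percentage points was smaller than the SD between control libraries, and no test was made of a sum over chosen features. Without control replicate 3 the difference was -1.07 points, and without control replicate 1 it was -23.9 points.

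**Figure D1:**
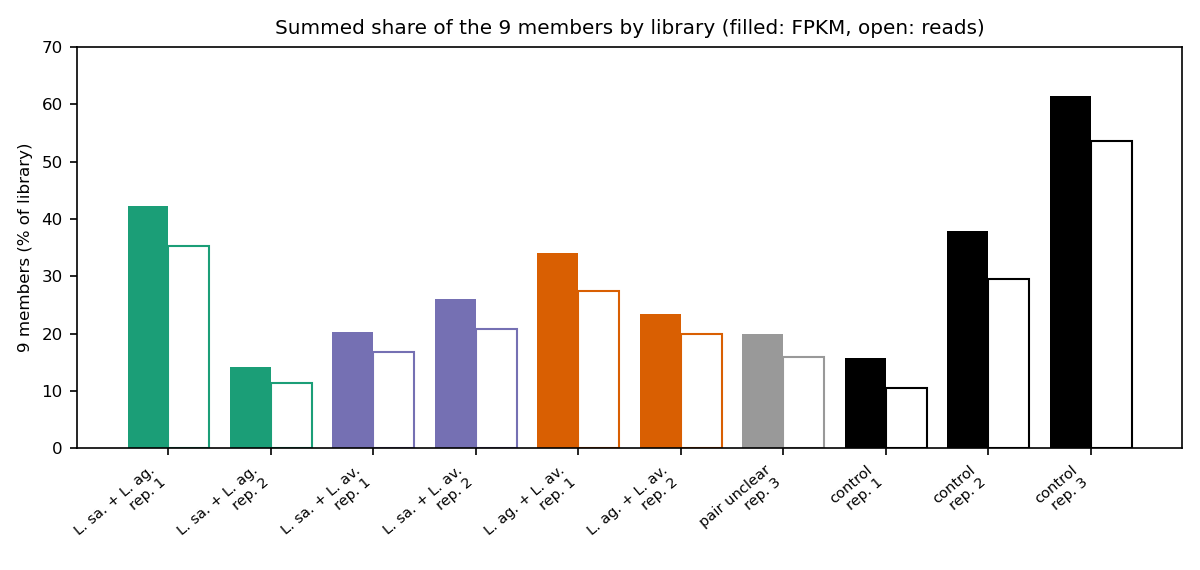
Summed share of the 9 members in each of the 10 libraries, as a percentage of summed FPKM (filled bars) and of recovered reads (open bars), with 1 bar of each kind per library. Pair-fed libraries lie between 14.3% and 42.3% of FPKM, and the 3 control libraries at 15.7%, 38.0% and 61.4%.

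Shares of recovered reads, which are not scaled to feature length or to the authors' totals, had the same order among the controls. The 9 held 35.3% and 11.4% of recovered reads in the L. sa. + L. ag. libraries, 16.8% and 20.9% with L. sa. + L. av., 27.5% and 19.9% with L. ag. + L. av., 15.9% in the library of unclear pair, and 10.5%, 29.6% and 53.7% in the control libraries. In control replicate 3, 11.7 M of 21.9 M reads came from these 9 features, against 2.49 M of 23.7 M reads in control replicate 1. The 95% Wilson intervals of these shares were at most 0.0446 percentage points wide and cover counting error only. The fewest reads behind any member in any library were 42317.

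As deposited, FPKM outside the 9 did not follow them among the controls. Summed FPKM of the other features was between 510763 and 1256004 FPKM in pair-fed libraries, where the 9 summed to between 137413 and 436873 FPKM. In control replicates 1, 2 and 3 the other features summed to 443712, 401464 and 461315 FPKM and the 9 to 82690, 245620 and 733760 FPKM. As deposited, the sum outside the 9 was higher in all 7 pair-fed libraries than in any control. Divided by all recovered reads, it lay between 505826 and 741843 in pair-fed libraries and at 567477, 496390 and 348233 in control replicates 1, 2 and 3, and the diets overlapped. On that scale the 9 and the other features divide a fixed total of reads. A larger read share of the 9 then leaves fewer reads for the others, so the fall over the controls is no separate result. Bulk RNA cannot tell fewer cells rich in mitochondria from less mitochondrial RNA per cell.

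The total by which each library was divided in the deposited FPKM bears on these levels. It was 0.572 to 1.10 times the recovered reads in pair-fed libraries, and 1.28, 1.24 and 0.755 times in control replicates 1, 2 and 3. The sum of the 9 spanned 3.18-fold from the lowest to the highest pair-fed library and 8.87-fold among the 3 controls. Divided by all recovered reads of each library instead, these spans were 3.00-fold and 5.24-fold. How these totals were set is not stated.

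Each member showed the same wide control range. ENSGALG00000018367, the highest by mean, was at 113749 and 26000 FPKM with L. sa. + L. ag., 38355 and 65747 FPKM with L. sa. + L. av., 57345 and 80356 FPKM with L. ag. + L. av., 37212 FPKM in the library of unclear pair, and 16518, 57288 and 157532 FPKM in control libraries. ENSGALG00000018373 was at 98060 and 25511 FPKM with L. sa. + L. ag., 37827 and 43299 FPKM with L. sa. + L. av., 50592 and 64602 FPKM with L. ag. + L. av., 33189 FPKM in the library of unclear pair, and 22188, 61407 and 174435 FPKM in control libraries. For both, control replicate 1 was the lowest and control replicate 3 the highest of all 10 libraries, and the diets overlapped. The same held for the other 7 members.

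ENSGALG00000018370 ranged from 27516 to 83244 FPKM in pair-fed libraries, with a median of 45053, and was at 13564, 40936 and 129772 FPKM in control libraries. ENSGALG00000018368 ranged from 21452 to 56490 FPKM in pair-fed libraries, with a median of 40661, and was at 12649, 35186 and 110626 FPKM in control libraries. ENSGALG00000018360 ranged from 9491 to 27169 FPKM in pair-fed libraries, with a median of 17883, and was at 5309, 15680 and 54105 FPKM in control libraries. In all 3 the pair-fed median lay above control replicate 2 and far below control replicate 3. ENSGALG00000018366 ranged from 9737 to 28396 FPKM in pair-fed libraries, with a median of 15354, and was at 3973, 11368 and 34933 FPKM in control libraries. ENSGALG00000018386 ranged from 6978 to 19315 FPKM in pair-fed libraries, with a median of 12850, and was at 2578, 8198 and 22767 FPKM in control libraries. In these 2, 6 of the 7 pair-fed libraries lay above control replicate 2. ENSGALG00000018382 ranged from 6470 to 16761 FPKM in pair-fed libraries, with a median of 11880, and was at 3387, 9277 and 28341 FPKM in control libraries. ENSGALG00000018364, the lowest member by mean, ranged from 4258 to 12245 FPKM in pair-fed libraries, with a median of 8912, and was at 2524, 6280 and 21250 FPKM in control libraries.

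**Figure D2:**
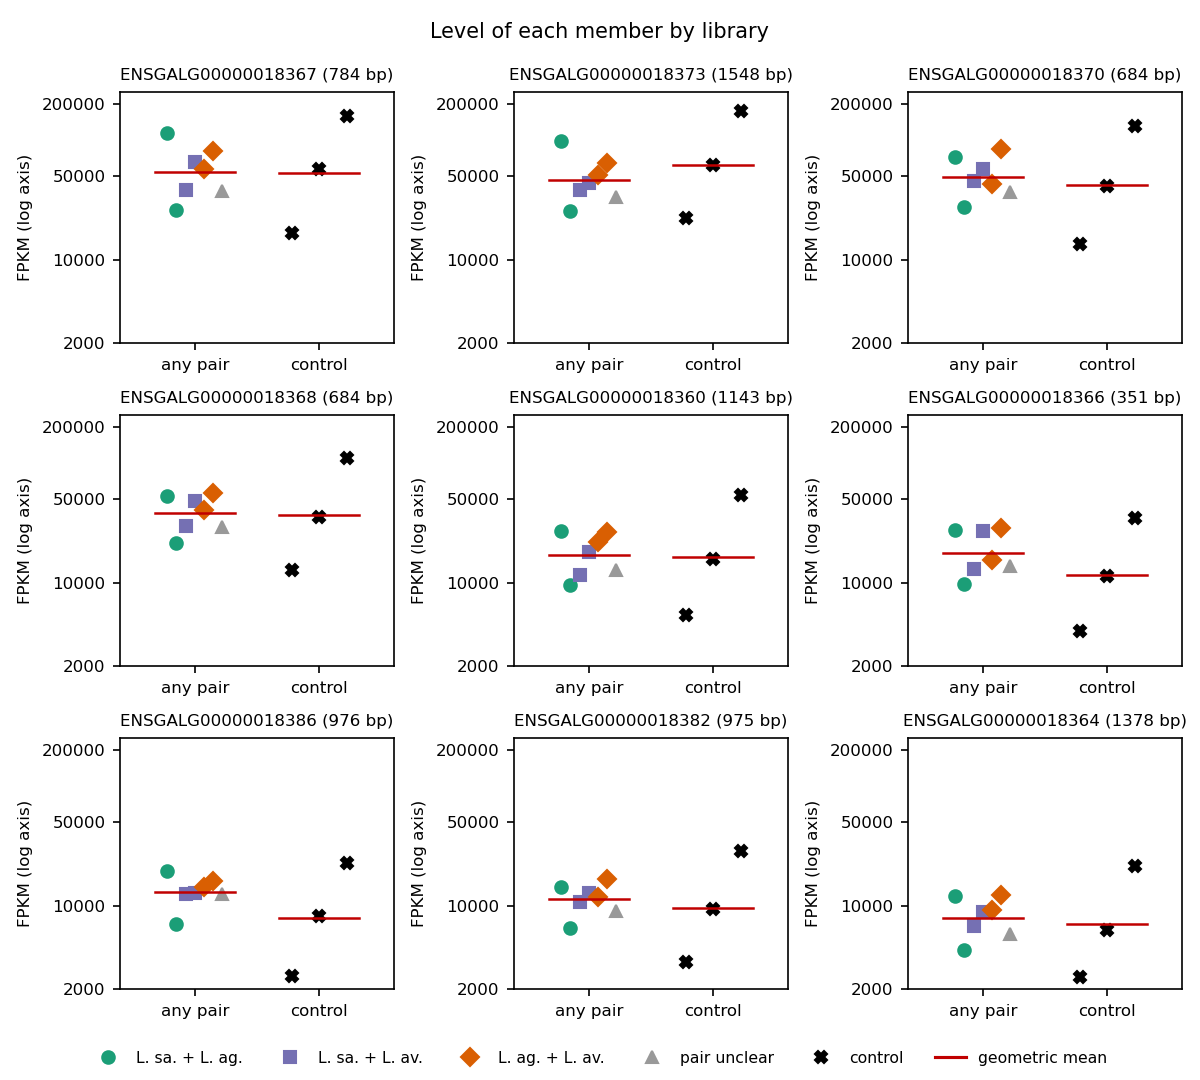
FPKM of each member on a shared log axis, with pair-fed libraries on the left (symbols by pair) and control libraries on the right, 1 point per library and red lines at the geometric mean. In every panel the highest and the lowest of the 10 points are control replicates 3 and 1, as for ENSGALG00000018367 at 157532 and 16518 FPKM.

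The control spread of the members was wide. Highest over lowest control value was 7.86 to 10.2 for the 9 members, on FPKM + 1, with a median of 8.79. For the other 12031 features tested the median was 1.51, and 74 of them (0.615%) spread at least as widely as the least spread member. Among the 117 other features with a mean of at least 1000 FPKM the median was 2.03, and 6 (5.13%) spread as widely. These 6 included ENSGALG00000018378 at 11.02-fold and ENSGALG00000018361 at 7.88-fold, which carry numbers of the same range and were not chosen, and 4 features outside that range at 10.9-fold to 40.5-fold. Within pair-fed libraries the members were not apart in this way, at 2.59 to 4.37 with a median of 2.88, against a median of 2.29 over the other features tested and of 3.35 over those of at least 1000 FPKM. These are descriptions of 3 and 7 libraries. The members were chosen by mean FPKM, and that choice is not independent of the control spread, since control replicate 3, the highest library for all 9, raises the mean by which they were chosen.

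With any pair against control, 0 of the 9 members passed the test (limma on log2(FPKM + 1), 2-sided, Benjamini-Hochberg adjusted p under 0.05 over 12040 features). Over all features tested 24.1% were called, 13.9% higher and 10.2% lower. That share changed with the control libraries in the fit, and leaving one out also leaves fewer libraries to test with. Without control replicate 2, 6 features were called higher and 0 lower, against 1668 and 1233 with all libraries. In that fit 3759 features had an unadjusted p under 0.05 in limma, against 4839 with all libraries. Without control replicate 3, 990 were called higher and 946 lower. All 9 members had passed the filter of at least 1 FPKM in at least 2 libraries. Their log2 fold changes ran from -0.43 to 0.73 with a median of 0.19, and 8 of 9 were above 0. The median was 0.03 over all features tested, and 0.26 over the 6452 features with a mean of at least 5 FPKM. The members' median thus lay above the first and below the second. At an unadjusted p under 0.05 there were also 0 members, against 40.2% of all features tested, and limma with voom weights on recovered reads called 0. Arithmetic mean FPKM was lower in pair-fed libraries for 7 of the 9, and for 6 of these 7 the log2 fold change was above 0, so the sign depended on the scale.

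ENSGALG00000018386 had the largest log2 fold change, 0.73 ± 0.58 (SE, limma adjusted p = 0.36), with a 95% interval from -0.52 to 1.98. It averaged 13513 ± 3796 FPKM in pair-fed libraries (SD, n = 7) and 11181 ± 10420 FPKM in control libraries (SD, n = 3). ENSGALG00000018366 followed at 0.61 ± 0.62 (SE, limma adjusted p = 0.47), with an interval from -0.73 to 1.95. It averaged 19240 ± 7997 FPKM in pair-fed libraries (SD, n = 7) and 16758 ± 16168 FPKM in control libraries (SD, n = 3). ENSGALG00000018373 had the lowest value, -0.43 ± 0.63 (SE, limma adjusted p = 0.63), with an interval from -1.80 to 0.95. It averaged 50440 ± 24486 FPKM in pair-fed libraries (SD, n = 7) and 86010 ± 79049 FPKM in control libraries (SD, n = 3). The other 6 members had log2 fold changes between 0.02 and 0.23, with SE between 0.57 and 0.68. Intervals of this width include changes of over 2-fold in either direction for 6 of the 9, so the absence of a call does not show that the diets were alike. The fit takes 1 spread for both diets. The members' log2 SD was 1.49 to 1.68 in the 3 control libraries and 0.45 to 0.73 in the 7 pair-fed libraries. These SE and intervals are therefore likely too narrow, and the p-values too small.

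**Figure D3:**
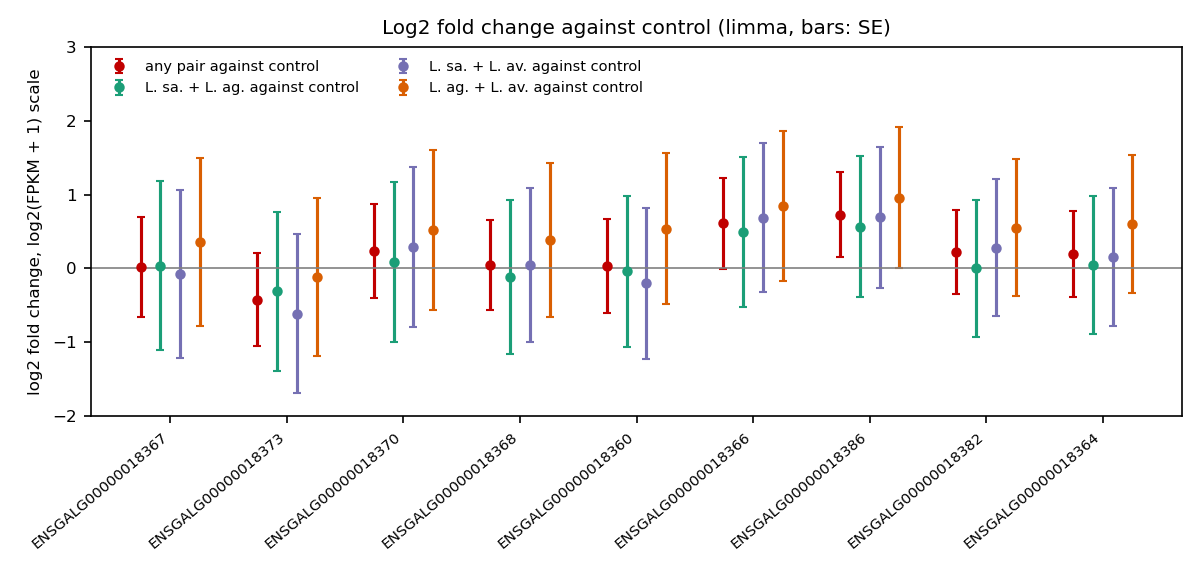
Log2 fold change of each member against control on the log2(FPKM + 1) scale, for any pair and for each pair, with bars of 1 SE from limma. The values for any pair lie between -0.43 and 0.73, and no member passed the threshold in any of the 4 comparisons.

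Single control libraries decided the sign. Without control replicate 1 the median log2 fold change of the 9 was -0.58, and without control replicate 3 it was 1.00, with 0 members called in either case. Over all 12040 features, 54 were called higher and 71 lower without control replicate 1, and 990 and 946 without control replicate 3. Without control replicate 3 the lowest limma adjusted p of a member was 0.0695. In that fit 2 members had an unadjusted p under 0.05, as had 4461 of the 12040 features tested. All 9 log2 fold changes then lay above 0, from 0.32 to 1.499. Without control replicate 1 all 9 lay below 0, from -1.17 to -0.072. Scaling moved the sign too: divided by all recovered reads, 7 of 9 lay below 0 with a median of -0.13, and the median over all features was -0.19. On that scale the diets overlapped for all 9, where 6.94% of all features had every pair-fed library above every control and 4.47% every one below.

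For single pairs the outcome was the same, with 0 of 9 members called in each comparison. The 3 comparisons share the same control libraries. Single control libraries turned the sign here as well. With L. sa. + L. ag. against control, log2 fold changes of the members ran from -0.31 to 0.57 with a median of 0.04 and SE of 0.93 to 1.14, where 0.0498% of all features were called (0.0415% higher). That median was -0.75 without control replicate 1, 0.82 without control replicate 3, -0.71 without the pair's own replicate 1 and 0.78 without its replicate 2. With L. sa. + L. av. against control they ran from -0.61 to 0.69 with a median of 0.15, where 0.0664% were called. Here the median was -0.58 without control replicate 1, against 0.96 when control replicate 3 was left out. Without the pair's own replicate 1 it was 0.40, and without its replicate 2 it was -0.055. A fit of only L. sa. + L. av. and control called 1273 of 12040 features higher and 457 lower, and 0 members. With L. ag. + L. av. against control the members' log2 fold changes ran from -0.12 to 0.96 with a median of 0.54, where limma called 0 features. Its median was -0.28 without control replicate 1 and 1.34 without control replicate 3. Leaving out the pair's own replicate 1 gave a median of 0.80, and leaving out its replicate 2 gave 0.30. At an unadjusted p under 0.05 these comparisons gave 15.5%, 26.6% and 22.6% of all features and 0 members each, and limma with voom weights called 0 members in each. In each of the 3, ENSGALG00000018386 had the highest and ENSGALG00000018373 the lowest log2 fold change among the 9.

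Between pairs no difference in the 9 was detectable. The L. sa. + L. ag. libraries differed from the L. sa. + L. av. libraries by log2 values of -0.28 to 0.31, and from the L. ag. + L. av. libraries by -0.58 to -0.19. The L. sa. + L. av. libraries differed from the L. ag. + L. av. libraries by -0.74 to -0.15. The size and sign of the L. sa. + L. ag. differences rested on single libraries, the lone sample left being assumed to vary like the other groups. Without L. sa. + L. ag. replicate 1 its differences were -0.95 to -0.60 from L. sa. + L. av. and -1.38 to -1.10 from L. ag. + L. av. Without L. sa. + L. ag. replicate 2 they were 0.29 to 1.28 and 0.018 to 0.78. In the third of these comparisons, leaving out any 1 library of its pairs gave medians between -0.66 and -0.15. The median thus stayed below 0, while single members rose to at most 0.36. With all libraries, SE were 1.016 to 1.25 and every limma adjusted p of a member was 1. These SE come from 1 fit of all groups, so the wide control spread enters them although no control library was compared. Of all features, 0%, 0.00831% and 0% were called in these 3 comparisons, and 1.63%, 4.07% and 2.92% had an unadjusted p under 0.05. Among the 9 there was no unadjusted p under 0.05 and no call with voom weights. Fits of only the compared pairs, without the controls, called 0 of 12040 features in each comparison, and so 0 members. The L. sa. + L. ag. group itself held the highest and the lowest pair-fed library for the sum of the 9, at 436873 and 137413 FPKM.

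The order of the 9 was stable in its coarse form. ENSGALG00000018367, ENSGALG00000018373, ENSGALG00000018370 and ENSGALG00000018368 exceeded the other 5 in all 10 libraries and held 71.6% to 79.3% of the FPKM of the 9. ENSGALG00000018364 was the lowest of the 9 in every library. ENSGALG00000018370 exceeded ENSGALG00000018368 in 10 of 10 libraries, by 0.31 ± 0.18 on the log2 scale (SD, n = 10), and ENSGALG00000018368 exceeded ENSGALG00000018360 in 10 of 10, by 1.16 ± 0.17 (SD, n = 10). ENSGALG00000018366 exceeded ENSGALG00000018386 in 10 of 10, by 0.49 ± 0.32 (SD, n = 10), and ENSGALG00000018382 exceeded ENSGALG00000018364 in 10 of 10, by 0.49 ± 0.14 (SD, n = 10). Levels of the remaining neighbours in the order did not differ beyond their spread over the 10 libraries: their log2 ratios were 0.09 ± 0.28, 0.11 ± 0.42, 0.10 ± 0.39 and 0.06 ± 0.30 (SD, n = 10 each).

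The counts of libraries for these close neighbours, picked after their values were seen and not tested, were as follows. ENSGALG00000018367 exceeded ENSGALG00000018373 in 7 of 7 pair-fed libraries and in 0 of 3 control libraries. In each of the other 3 combinations, at least 1 pair-fed library had the order of the controls. ENSGALG00000018373 exceeded ENSGALG00000018370 in 2 of 7 pair-fed and 3 of 3 control libraries. ENSGALG00000018360 exceeded ENSGALG00000018366 in 1 of 7 pair-fed and 3 of 3 control libraries, and ENSGALG00000018386 exceeded ENSGALG00000018382 in 6 of 7 pair-fed and 0 of 3 control libraries.

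The share of each member within the 9 is free of the library total, and there 3 of the 9 had diets that did not overlap. ENSGALG00000018373 made up 22.4%, 18.6%, 18.4%, 14.7%, 19.2%, 16.8% and 17.4% of the FPKM of the 9 in the pair-fed libraries, and 26.8%, 25.0% and 23.8% in the control libraries. Its highest pair-fed share lay below its lowest control share. ENSGALG00000018366 made up 6.29%, 7.09%, 6.37%, 9.15%, 5.81%, 7.38% and 7.21% in the pair-fed libraries, and 4.80%, 4.63% and 4.76% in the control libraries, so every pair-fed library was above every control. ENSGALG00000018386 made up 4.42%, 5.08%, 6.07%, 4.37%, 5.45%, 4.19% and 6.55% in the pair-fed libraries, and 3.12%, 3.34% and 3.10% in the control libraries, again with every pair-fed library above. Pair-fed values are in the order L. sa. + L. ag., L. sa. + L. av., L. ag. + L. av. (2 libraries each) and the library of unclear pair.

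These 3 were singled out after their values were seen, and shares within a sum move against each other. Relative to the geometric mean of the 9, the same 3 members had diets that did not overlap, with mean log2 differences of -0.61, 0.43 and 0.55 between any pair and control. On that scale the diets did not overlap for 1.15% of all features tested (0.772% above, 0.382% below), and as deposited for 22.1%, among them 0 of the 9. Dividing by the 9 puts their spread, 8.90-fold among controls for the geometric mean, into the other features but cancels it within the 9. The 1.15% is therefore not a like background for these 3 members. Limma on that scale, added after seeing the data, called 0 of the 9, with adjusted p of 0.49 for ENSGALG00000018373, 0.68 for ENSGALG00000018366 and 0.62 for ENSGALG00000018386, and 0.208% of all features. In that fit the SE of the 3 were 0.40 to 0.51. They were moderated over all features, into which the division puts the members' spread. The SD of the log2 ratio itself was smaller, for ENSGALG00000018373 0.22 in pair-fed and 0.090 in control libraries. For ENSGALG00000018366 it was 0.22 and 0.012, and for ENSGALG00000018386 0.22 and 0.079. That fit therefore cannot decide whether the 3 differed by diet. ENSGALG00000018373 is the longest of the 9 at 1548 bp and ENSGALG00000018366 the shortest at 351 bp. ENSGALG00000018386 at 976 bp and ENSGALG00000018382 at 975 bp are nearly equal in length, and the shares of the second, 3.27% to 5.24% in pair-fed and 3.78% to 4.10% in control libraries, overlapped. The part of depth and length in these shares was not tested.

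**Figure D4:**
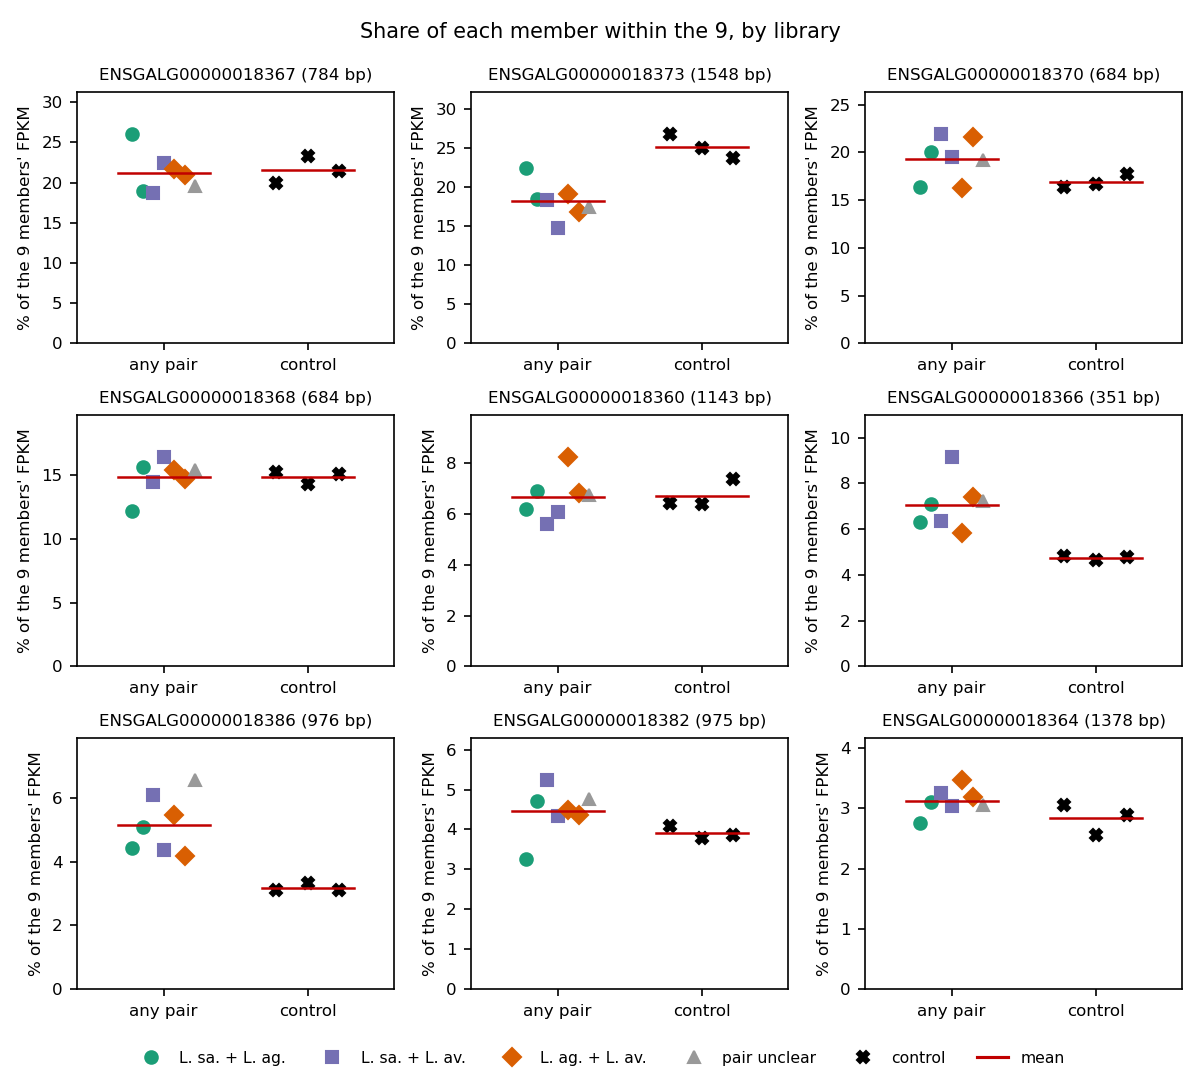
Share of each member in the summed FPKM of the 9, with pair-fed libraries on the left (symbols by pair) and control libraries on the right, 1 point per library and red lines at the mean. The diets do not overlap for ENSGALG00000018373 (at most 22.4% against at least 23.8%), ENSGALG00000018366 (at least 5.81% against at most 4.80%) and ENSGALG00000018386 (at least 4.19% against at most 3.34%), and they overlap in the other 6 panels.

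The members moved together across libraries. Pearson correlation of log2(FPKM + 1) between members ranged from 0.77 to 0.99 over the 10 libraries and from 0.79 to 0.98 over the 7 pair-fed libraries (36 combinations). All points of a library share its total, so these values describe the libraries and carry no test. Among 10749 other features with a mean of at least 1 FPKM, ENSGALG00000018361 (1818 bp) was most like the mean profile of the 9, at 0.98 over 10 libraries and 0.97 over the pair-fed libraries. ENSGALG00000018378 (1041 bp) was next, at 0.97 and 0.93. Both carry numbers of the same range and lay just under the chosen level, at means of 6399 and 7037 FPKM. The median correlation over the features compared was 0.0050, and 3 reached 0.95. The third, named after its value was seen, was ENSGALG00000021719 (297 bp), at 0.95 and 0.89, whose number lies outside the range.

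The next feature below the members in mean FPKM did not share their profile over the control libraries. ENSGALG00000018364 stood just inside the choice with a mean of 8923 FPKM, and ENSGALG00000018384 (1621 bp), of the same number range, just outside with 8773 FPKM. Their order rested on control replicate 3: without it the means were 7553 FPKM for ENSGALG00000018364 and 9040 FPKM for ENSGALG00000018384. ENSGALG00000018384 was at 19646 and 6467 FPKM with L. sa. + L. ag., 10738 and 5119 FPKM with L. sa. + L. av., 7605 and 14489 FPKM with L. ag. + L. av., 9322 FPKM in the library of unclear pair, and 4826, 3144 and 6370 FPKM in control libraries. Its control values spanned 2.03-fold, where those of the 9 spanned at least 7.86-fold. Set against the sum of the 9, it was 1.74% to 5.22% in pair-fed libraries and 5.84%, 1.28% and 0.868% in control replicates 1, 2 and 3.

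**Figure D5:**
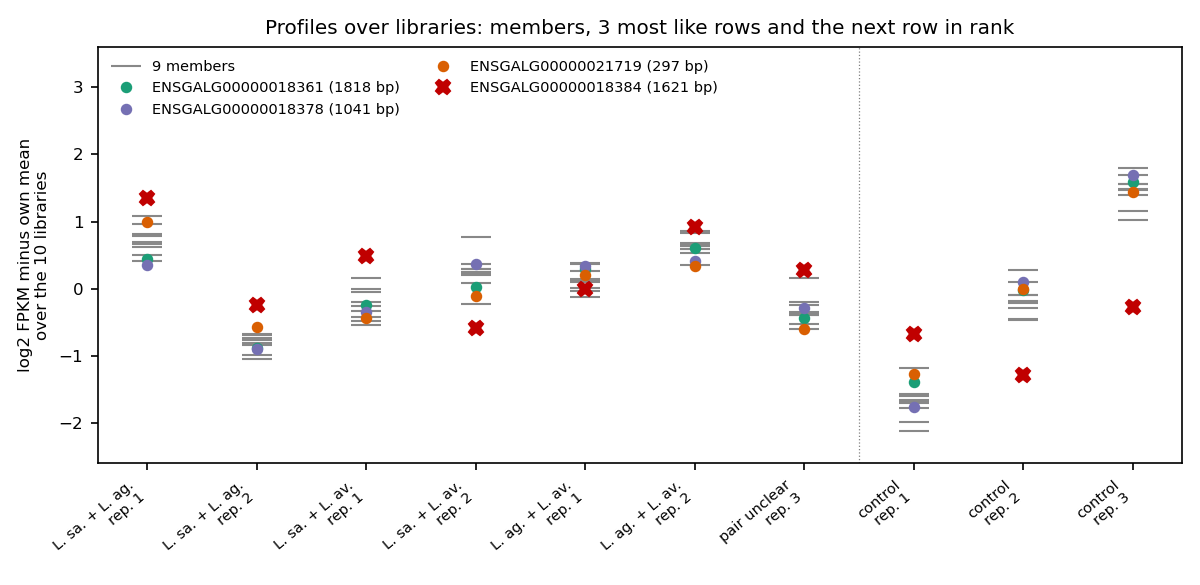
Log2 FPKM of each feature minus its own mean over the 10 libraries, by library, for the 9 members (grey dashes), the 3 features most like them (circles) and ENSGALG00000018384 (red crosses). The circles lie within the span of the dashes in all 3 control libraries, where the crosses span 2.03-fold and the members at least 7.86-fold.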

How the data were processed

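The authors deposited 1 table of FPKM values for 10 RNA libraries of hen duodenal crypts. Crypts were released with EDTA, RNA extraction used TRIzol and then RNeasy, and the library kit was TruSeq, per the labels' protocols. CASAVA 1.8, HISAT2 and featureCounts 1.5.0-p3 are named in the submitters' processing notes. Genome build, annotation and FPKM totals: not given in the sources used here.

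Whole reads, feature lengths and totals were recovered from the steps of low values. Each length was chosen so that all values of a feature lay within 0.02 reads of a whole number. Such a length was found for all 17375 features above 0. That 100% of values above 0 came out whole follows from this choice and is no separate check. The recovery and the fits were tested on simulated data. For the fits, all simulated features had the same spread in both diets. That does not cover the members, whose log2 SD was 1.49 to 1.68 in control and 0.45 to 0.73 in pair-fed libraries. Values were tested as deposited on log2(FPKM + 1) with limma 3.58.1 in R 4.3.3 (trend, Benjamini-Hochberg over 12040 features with at least 1 FPKM in at least 2 libraries). Any pair against control was a fit of 7 and 3 libraries, and single pairs came from 1 fit of all groups, with a separate term for the pair-fed library of unclear pair. A count model needs deposited counts and was not run.

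The 9 members, the rule for naming (all members, and the 2 others most like their mean profile) and the alternatives were chosen with earlier results of these data known. Planned lists of nuclear respiratory chain genes and cell type markers gave no result, since 0 of the table's identifiers matched the 25635 genes of the reference. Voom weights and values relative to the 9 were added after seeing the data.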

Additional observations from a re-analysis of the deposited data

How the results depend on the processing

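No member was called in any of 165 fits, which are the 7 comparisons under their settings, and the lowest adjusted p of a member was 0.0695. These fits were unlike in how many features they called at all. For any pair, 6 of 12040 features were called higher and 0 lower without control replicate 2. Divided by the FPKM outside the 9, 560 were called higher and 4141 lower. With L. ag. + L. av. against control the main fit called 0 features. Where few or no features were called, 0 of the 9 says little about the members. For any pair against control the sign of most members was not fixed. Divided by all recovered reads, log2 fold changes turned to -0.31 for ENSGALG00000018367, -0.092 for ENSGALG00000018370, -0.28 for ENSGALG00000018368, -0.29 for ENSGALG00000018360, -0.10 for ENSGALG00000018382 and -0.13 for ENSGALG00000018364. With voom weights the same 6, in that order, were at -0.31, -0.095, -0.28, -0.30, -0.10 and -0.13. Divided by the FPKM outside the 9, a scaling that puts the median over all features at -0.58 and not at 0.03, they were at -0.81, -0.60, -0.78, -0.80, -0.60 and -0.64, with ENSGALG00000018366 at -0.22 and ENSGALG00000018386 at -0.10. With quantile normalization ENSGALG00000018360, ENSGALG00000018382 and ENSGALG00000018364 were at -0.45, -0.46 and -0.42. The cause was not tested.

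Leaving out 1 library, the ranges were -1.17 to 0.32 for ENSGALG00000018373, -0.82 to 0.80 for ENSGALG00000018367, -0.58 to 1.05 for ENSGALG00000018370, -0.72 to 0.84 for ENSGALG00000018368, -0.79 to 0.89 for ENSGALG00000018360, -0.16 to 1.40 for ENSGALG00000018366, -0.53 to 1.01 for ENSGALG00000018382, -0.072 to 1.499 for ENSGALG00000018386 and -0.54 to 1.00 for ENSGALG00000018364. Each lowest value came without control replicate 1 and each highest without control replicate 3. The difference in summed share ran from -23.9 to -1.07 points.

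A replicate block called 0 members in each comparison, with a median log2 fold change of 0.34 for any pair, and 1672 features higher and 1325 lower, against 1668 and 1233 without it. Against control the block gave medians of 0.82 for L. sa. + L. ag., 0.96 for L. sa. + L. av. and 1.34 for L. ag. + L. av., with all members above 0 and the same values as without control replicate 3, since no library of these pairs carries that number. Deviations of same-numbered libraries from their group means correlated from -0.29 to 0.44. In a group of 2 libraries these deviations mirror each other, so this check cannot decide whether the numbers pair the libraries. The main fits did not treat them as a pairing. The planned edgeR fit was not run, since the deposited unit is FPKM.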
